A study of Mus musculus with 16 samples.

Results

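The fibrillar collagens examined here are 8 genes, Col1a1, Col1a2, Col3a1, Col5a1, Col5a2, Col5a3, Col11a1 and Col27a1, taken by symbol from a table of read counts for 23100 genes. All 8 were found in the table (NCBI genes 12842, 12843, 12825, 12831, 12832, 53867, 12814 and 373864, in the order named), and all 8 passed the filter on low counts. The cells were fibroblasts from C57BL/6 mouse embryos at embryonic day 13.5. They were either Zac+/+ (wildtype) or Zac+/- (mutant) for Zac1, the imprinted zinc finger gene now named Plagl1, and the mutant titles also carry the code KOpat. Each genotype had 2 lines, numbered as biological replicates 1 and 2 and lettered I and L in the labels, and the number of embryos behind a line is not stated in the labels. Every line was sampled while proliferating, on day 2 of culture, and again as quiescent cells on days 8, 10 and 12, so each of the 8 groups of genotype and day held 2 libraries. All groups shared the same medium with serum and received no other treatment in the labels.

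Fibrillar collagens are the structural proteins of connective tissue fibrils, and fibroblasts are their main source. Their chains wind into triple helices, are cleared of their end propeptides outside the cell and assemble side by side into fibrils. Types I (Col1a1 and Col1a2 chains) and III (Col3a1) make up the bulk of such fibrils in soft tissue, type V (Col5a1, Col5a2, Col5a3) and type XI (Col11a1) sit within fibrils and set how they start and how thick they grow, and type XXVII (Col27a1) is a member best known from cartilage. The series title names extracellular matrix genes as targets of Zac1, which is the question behind the genotype comparisons.

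Libraries held 28079241 to 61039793 counted reads. The lowest count of any member in any library was 259 reads (Col27a1). Plagl1, the targeted gene, stood at 45.4 and 37.7 CPM (reads scaled to a common library size) in the wildtype lines at day 2 and at 9.14 and 7.59 in the mutant lines, as labelled. All 8 fibroblast markers checked, among them Pdgfra, Thy1 and Prrx1, were present in every library, the lowest being Twist1 (16.02 to 45.5 CPM). Of other cell types, the defining genes Pecam1 (endothelium), Epcam (epithelium), Myod1 (muscle) and Adipoq (fat) were at most 0.298 CPM, while other genes of the same lists were higher. Kdr reached 15.7 CPM (endothelium), Krt18 11.8 (epithelium), Acta1 279.6 and Des 29.0 (muscle) and Lpl 56.8 (fat). Macrophage and cartilage genes were measurable.

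Sequence upstream of the members is shown first for the genes whose levels changed most (Col3a1, Col11a1 and Col1a2) and for Col5a3, the 1 member that was called in neither genotype. RefSeq promoter windows (build GRCm38.p6, not the mm9 build of the counts) were found for 6 of the 8 members. The sequences run 5′ to 3′ on the gene's own strand, up to the base before the furthest annotated start. Capitals mark 3 motifs on either strand. The CCAAT box is spelled as named. The TATA box was searched as TATAAA. The GC box was searched as GGGCGG. The Col3a1 stretch is chr1:45311288-45311537 (plus strand), that of Col1a2 is chr6:4505368-4505617 (plus strand), that of Col11a1 is chr3:114030290-114030478 (plus strand) and that of Col5a3 is chr9:20815118-20815317 (minus strand).
Col3a1: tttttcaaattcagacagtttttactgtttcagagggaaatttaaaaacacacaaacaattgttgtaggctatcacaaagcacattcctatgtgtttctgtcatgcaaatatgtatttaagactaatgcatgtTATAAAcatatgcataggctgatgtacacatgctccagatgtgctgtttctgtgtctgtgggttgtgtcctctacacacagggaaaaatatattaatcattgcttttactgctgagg
Col1a2: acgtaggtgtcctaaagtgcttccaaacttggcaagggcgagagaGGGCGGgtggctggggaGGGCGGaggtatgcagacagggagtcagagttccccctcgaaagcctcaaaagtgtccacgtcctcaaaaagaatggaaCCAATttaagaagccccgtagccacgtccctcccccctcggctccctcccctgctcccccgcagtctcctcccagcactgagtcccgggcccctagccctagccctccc
Col11a1: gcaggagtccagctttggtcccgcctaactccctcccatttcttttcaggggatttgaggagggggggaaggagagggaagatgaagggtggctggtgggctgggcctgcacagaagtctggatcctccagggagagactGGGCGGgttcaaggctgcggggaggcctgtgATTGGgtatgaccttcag
Col5a3: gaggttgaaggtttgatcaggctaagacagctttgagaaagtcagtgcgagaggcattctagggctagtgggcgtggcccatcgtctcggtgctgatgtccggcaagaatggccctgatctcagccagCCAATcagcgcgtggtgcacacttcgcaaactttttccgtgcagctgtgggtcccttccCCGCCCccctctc

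The motif search covered the 250 bases before the start used for each window, both strands. For Col11a1 and Col5a3 it ran past the furthest annotated start, where the printed stretch ends. Col3a1 held 1 TATAAA match, with its first base 117 bases before the start, and neither of the others. Whether that match works as a TATA box was not tested. Col1a2, Col11a1 and Col5a3 each held 1 CCAAT box, 2 GC boxes and no TATAAA match (1 GC box of Col11a1 and 1 of Col5a3 lie past the end of the printed stretch). Across 32851 promoter windows of that length, the CCAAT box was present in 33.8%, the TATA box in 12.4% and the GC box in 32.7%. GGGGCCCC, a palindrome of the GC-rich kind that ZAC1 protein is known to bind, was present in 0.889% of windows and in none of the 6 members' windows. A match here is of letters only, and the search words do not overlap one another in the printed stretches. Col3a1 and Col5a2 are direct neighbours on chromosome 1, on opposite strands with no annotated gene between them. Col3a1 rose far more than Col5a2.

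The first comparison asked how the fibrillar collagens changed between proliferating and quiescent cells. Col3a1 rose most, 21.1-fold in wildtype and 16.6-fold in mutant cells, followed by Col11a1 (5.82-fold and 6.17-fold) and Col1a2 (3.46-fold and 3.25-fold). Col1a1, Col27a1, Col5a2 and Col5a1 rose less, and Col5a3 was not called in either genotype. In wildtype cells 7 of 8 members were called higher and none lower, where 23.9% of 15740 tested genes were called higher and 23.7% lower (edgeR quasi-likelihood test, Benjamini-Hochberg adjusted p under 0.05, 2 lines a group with the 3 quiescent harvests of a line summed). In mutant cells the same 7 were called higher, against 21.1% of tested genes higher and 21% lower. The members' median log2 fold change was 1.33 in wildtype and 1.34 in mutant cells, beside 0.051 and 0.053 over all tested genes.

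Type III and type I chains make up the bulk of the fibril. Col3a1 stood at 351 and 390.2 CPM in wildtype replicates 1 and 2 at day 2, and at 5273, 7118 and 8686 CPM on days 8, 10 and 12 in replicate 1 and 6273, 8438 and 10953 in replicate 2. In mutant replicate 1 it went from 502 CPM at day 2 to 6892, 9412 and 12396 on the later days, and in mutant replicate 2 from 553 to 6770.2, 8911 and 10619. It was higher at each later harvest than at the one before in all 4 lines, and the day 2 and quiescent libraries did not overlap (log2 4.40, SE 0.14, edgeR adjusted p = 2.09e-07 in wildtype, and 4.06, SE 0.14, adjusted p = 4.07e-07 in mutant cells). It ranked 4 by p among 15740 genes in both genotypes. As the plot of levels by day shows, its slope between day 2 and day 8 was steeper than that of any other member, with a gain of 12.3-fold to 16.1-fold by line.

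**Figure D1:**
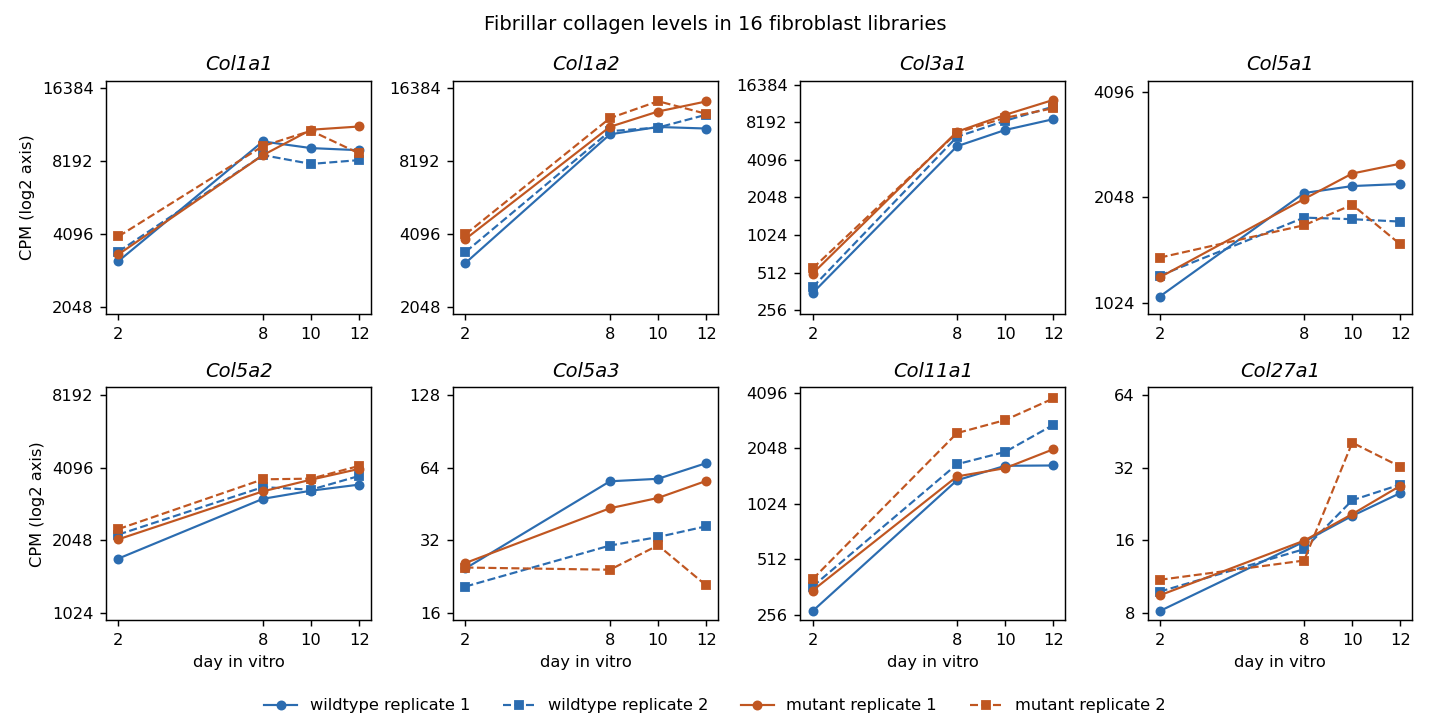
Level of each of the 8 genes (y axis, CPM on a log2 axis) by day in vitro (x axis) in the 4 lines, with wildtype in blue, mutant in orange, replicate 1 as circles with solid lines and replicate 2 as squares with dashed lines. Each point is 1 library. Col3a1 climbs at every harvest, from between 351 and 553 CPM at day 2 to between 8686 and 12396 at day 12. On the quiescent days Col5a3 and Col11a1 separate replicate 1 lines from replicate 2 lines.

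Col1a1, the alpha 1 chain of type I collagen, was at 3158 and 3457 CPM in the wildtype lines at day 2 and at 3369 and 3996 in the mutant lines. On days 8, 10 and 12 it stood at 9879, 9272 and 9088 in wildtype replicate 1, 8675, 7974 and 8270.02 in wildtype replicate 2, 8665, 11043 and 11389.7 in mutant replicate 1 and 9451, 10936 and 8812 in mutant replicate 2. In both wildtype lines Col1a1 was already at its highest on day 8. Col1a2, the alpha 2 chain, went from 3104 and 3445 CPM in wildtype and 3899 and 4078 in mutant cells at day 2 to 10572, 11338 and 11171 in wildtype replicate 1, 10892, 11279.5 and 12742 in wildtype replicate 2, 11356, 13138 and 14459.8 in mutant replicate 1 and 12332, 14491 and 12847 in mutant replicate 2. All quiescent libraries exceeded all day 2 libraries for both chains. The log2 changes in wildtype cells were 1.42 (SE 0.13, edgeR adjusted p = 1.74e-05) for Col1a1 and 1.79 (SE 0.11, adjusted p = 2.31e-06) for Col1a2, and in mutant cells both chains rose likewise, 2.71-fold (log2 SE 0.13, adjusted p = 2.17e-05) and 3.25-fold (log2 SE 0.11, adjusted p = 4.28e-06).

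Type V chains, which combine with type I in mixed fibrils, rose less. Col5a1 ran from 1070.1 to 1381 CPM over the 4 day 2 libraries and from 1506 to 2555 over the 12 quiescent ones, and it rose 1.72-fold in wildtype (edgeR adjusted p = 0.00294) and 1.55-fold in mutant cells (adjusted p = 0.0107). Each of these calls rested on the replicate 1 line of its genotype. Without wildtype replicate 1 the wildtype log2 change went from 0.78 to 0.51 (edgeR adjusted p = 0.127), and without mutant replicate 1 the mutant change went from 0.63 to 0.31 (adjusted p = 0.261). Col5a2 ran from 1721 to 2279 CPM at day 2 and from 3040.2 to 4161 in quiescent libraries, a rise of 1.74-fold in wildtype (adjusted p = 7.39e-04) and 1.69-fold in mutant cells (adjusted p = 0.00125), and it passed with any 1 line left out. Col3a1 and Col5a1 share exon positions with genes of GENCODE M21 that are not in the count table. A microRNA gene overlaps exons of Col3a1 on the same strand, and noncoding genes on the opposite strand overlap exons of Col5a1, and no source used here gives the strand setting of the counting.

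Col5a3, the scarcest of the type V chains, differed between lines in quiescence. At day 2 its level was 24.5 and 20.6 CPM in the wildtype lines and 25.8 and 24.7 in the mutant lines. In quiescent cells it stood at 56.1, 57.5 and 66.7 CPM in wildtype replicate 1 and 43.4, 47.9 and 56.4 in mutant replicate 1, against 30.4, 33.0 and 36.6 in wildtype replicate 2 and 24.2, 30.5 and 20.8 in mutant replicate 2. The replicate 1 lines of both genotypes therefore lay above the replicate 2 lines at every quiescent harvest, and mutant replicate 2 stayed near its day 2 level throughout. The change between states missed the threshold in wildtype (log2 1.06, SE 0.37, edgeR adjusted p = 0.0509) and in mutant cells (log2 0.54, SE 0.36, adjusted p = 0.275). With the line as a replicate block, which compares each line with itself, the wildtype change passed (log2 1.00, adjusted p = 0.00207), making 8 of 8 members in that genotype. It did not pass in limma-voom, where the line was a random replicate block (log2 1.02, SE 0.48, adjusted p = 0.140). That fit put the correlation within a line at -0.067 over all genes, so it gained nothing from the pairing.

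Col11a1, the alpha 1 chain of type XI collagen, showed the opposite order of lines. It was at 268 and 364.5 CPM in the wildtype lines and 347 and 399 in the mutant lines at day 2. On days 8, 10 and 12 it reached 1377, 1649 and 1656 in wildtype replicate 1, 1682, 1962 and 2751 in wildtype replicate 2, 1444, 1601 and 2028 in mutant replicate 1 and 2482, 2922 and 3827 in mutant replicate 2. Replicate 2 lines exceeded replicate 1 lines at every harvest within each genotype, and mutant replicate 2 was the highest of the 4 lines throughout. The change between states was log2 2.54 (SE 0.32, edgeR adjusted p = 5.37e-04) in wildtype and 2.63 (SE 0.32, adjusted p = 5.92e-04) in mutant cells. Its SE was more than that of Col3a1, Col1a1 or Col1a2.

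Col27a1, the least abundant member, rose late. It was between 8.15 and 10.98 CPM at day 2 and between 13.2 and 15.9 at day 8, a gain of 1.202-fold to 1.94-fold by line. By day 12 it was at 25.1 and 27.2 CPM in wildtype and 26.9 and 32.2 in mutant lines. The gain from day 8 to day 12 was larger than the gain up to day 8 in both replicate 2 lines. In wildtype replicate 1 it was smaller (1.59-fold after 1.94-fold), and in mutant replicate 1 the gains were nearly equal. Mutant replicate 2 at day 10 stood apart at 40.6 CPM while wildtype replicates 1 and 2 and mutant replicate 1 held 20.2, 23.4 and 20.5 on that day. Over the summed quiescent harvests the rise was 2.35-fold in wildtype (edgeR adjusted p = 4.52e-04) and 2.35-fold in mutant cells (adjusted p = 5.86e-04).

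**Figure D2:**
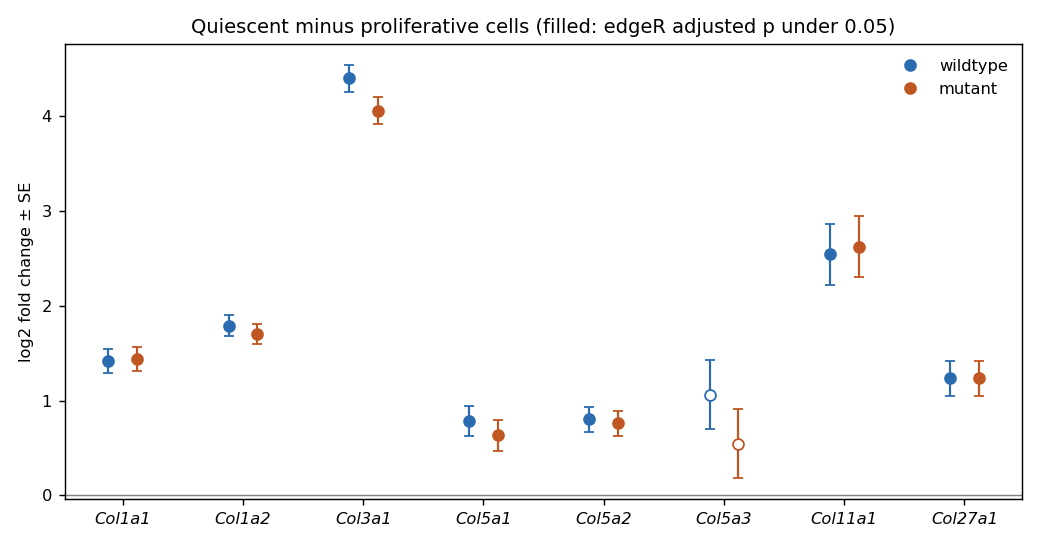
Log2 fold change of quiescent over proliferative cells (y axis; points with SE bars from the edgeR test) for each gene (x axis), wildtype in blue and mutant in orange, 2 lines a group; filled points were called at an adjusted p under 0.05. Col3a1 stands highest at 4.40 and 4.06, and Col5a3 is the member with open points.

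Cartilage genes as a sum had the same order of lines as Col11a1 at day 12, though single genes such as Col10a1 and Col2a1 did not. The summed level of 12 cartilage markers was 200.3 to 325 CPM in wildtype and 183 to 413 in mutant libraries at day 2, and 229.9 to 587 and 256 to 984 in quiescent ones. In mutant replicate 2 the sum was 431 CPM at day 8, 984 at day 10 and 943 at day 12, the highest of the 4 lines on each day. Col27a1 went up between days 8 and 10 in all 4 lines, 3.07-fold in mutant replicate 2 and 1.28-fold to 1.59-fold in the others. In mutant replicate 2 it was at 0.795 of its day 10 level on day 12. Of the defining markers, Acan (the cartilage proteoglycan) was at 12.5 CPM in mutant replicate 2 at day 2 and at 9.22, 49.5 and 62.8 on days 8, 10 and 12. In wildtype replicates 1 and 2 and mutant replicate 1 it was at 8.99, 12.0 and 6.58 CPM at day 2. By day 12 it was lower in these lines, at 1.74, 8.97 and 1.62, and at most 8.97 in their quiescent libraries. Matn1 had 0 counts in 7 of 16 libraries and reached 1.69 CPM. Without mutant replicate 2 the mutant rise of Col11a1 was log2 2.25 (edgeR adjusted p = 0.00138) and that of Col27a1 was 1.097 (adjusted p = 0.00374). That fit holds 1 mutant line, which is assumed to vary like the other groups.

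Other marker lists also moved between states. The 6 myofibroblast genes summed to 11837 to 13994 CPM in wildtype and 11349.7 to 13549.8 in mutant libraries at day 2, and to 7388 to 9120.4 and 6923 to 9909.5 in quiescence. Acta2 and Tagln carry most of these sums, and in mutant replicate 2 Actg2, Cnn1 and Myl9 did not go down, Actg2 standing at 231 CPM at day 2 and 324, 349.6 and 353 on the later days. From day 2 to day 12 Actg2 was nearly flat in wildtype replicate 1 (351 and 338 CPM) and lower in wildtype replicate 2 (274 and 218). Myl9 was nearly flat in wildtype replicate 2 (642 and 618 CPM) and lower in mutant replicate 1 (814 and 642). Macrophage genes (10 of 11 listed were in the table) summed to 19.9 to 78.9 and 13.6 to 104 CPM at day 2 and 29.2 to 254 and 13.6 to 458 in quiescence. Lyz2, a lysozyme of macrophages, reached 239 CPM, and mutant replicate 2 had the lowest macrophage level of the quiescent lines on days 8 and 12. Bone-forming genes, mostly Spp1, summed to 1484 to 1962 CPM in wildtype and 1486 to 1928 in mutant libraries at day 2 and to 2017 to 2816 and 1543 to 4774 in quiescence. Runx2 was lower at day 12 than at day 2 in every line (40.0 to 31.4 CPM in wildtype replicate 1), as was Sp7 (at most 1.15 CPM in any library). Phex and Dmp1 were higher at day 12 in every line. Muscle genes summed to 211 to 299 and 148 to 292 CPM at day 2 and to 46.1 to 83.5 and 59.3 to 95.9 in quiescence. Endothelial genes went from 18.3 to 19.7 and 14.5 to 18.8 CPM to 2.97 to 7.60 and 2.98 to 6.83, and epithelial genes from 10.6 to 13.3 and 12.3 to 15.0 to 2.41 to 4.61 and 1.69 to 3.29. Acta1, Kdr and Krt18 carry most of the muscle, endothelial and epithelial sums at day 2. Other genes of these lists, Des, Tek and Cdh1, were higher at day 12 than at day 2 in every line. In wildtype replicate 1 Kdr went from 13.8 to 2.14 CPM and Tek from 0.417 to 3.10. Genes of fat cells summed to 25.2 to 27.4 and 23.7 to 24.5 CPM at day 2 and 20.8 to 72.1 and 25.5 to 60.2 in quiescence. Lpl carries most of this sum, and it was higher at day 12 than at day 2 in every line, while Pparg was lower in every line. In wildtype replicate 1 Lpl went from 15.8 to 56.8 CPM and Pparg from 8.12 to 6.52. The fibroblast list as a whole moved little (6424 to 6876 and 6229 to 6363 CPM at day 2, 6063 to 6682 and 6604 to 7174 in quiescence). That sum hides opposite moves of its members. Vim, the largest, and Thy1 were lower at day 12 than at day 2 in every line, and the other members were higher. In wildtype replicate 1 Vim went from 4737 to 2309 CPM and Fbn1 from 687 to 1697. Pdgfra was at 46.3, 64.0, 45.7 and 91.8 CPM at day 2 and 216, 268, 223 and 313 at day 12 (wildtype replicates 1 and 2, then mutant replicates 1 and 2). In bulk RNA, a change in the number of cells of a type and a change in RNA per cell cannot be told apart, and the part of these cell types in the collagen changes was not tested.

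Together the 8 genes took up a larger share of all reads after growth stopped. Their share was 0.919% and 1.07% of counts in wildtype and 1.11% and 1.25% in mutant libraries at day 2. By day 12 it was 3.77% and 4.04% in wildtype and 4.79% and 3.98% in mutant libraries. The lowest share (0.919%, 95% Wilson interval 0.916 to 0.922) and the highest (4.79%, 4.78 to 4.80) were both in replicate 1 lines. These intervals cover counting error only, and the spread between lines was far wider.

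The make-up of the family shifted from type V toward type III. Col3a1 held 3.61% and 3.52% of the family's reads in the wildtype lines and 4.39% and 4.34% in the mutant lines at day 2 and 23.9%, 27.2%, 26.4% and 25.4% at day 12. The type V chains together held 28.9% to 30.8% of family reads at day 2 and 13.6% to 15.9% at day 12 (ranges over the 4 lines). Type I chains held 62.3% to 64.5% at day 2 and 51.8% to 55.6% at day 12. Counting intervals of these shares were at most 0.166 percentage points to either side. The ranges at day 2 and day 12 did not overlap for any of the 3 types.

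**Figure D3:**
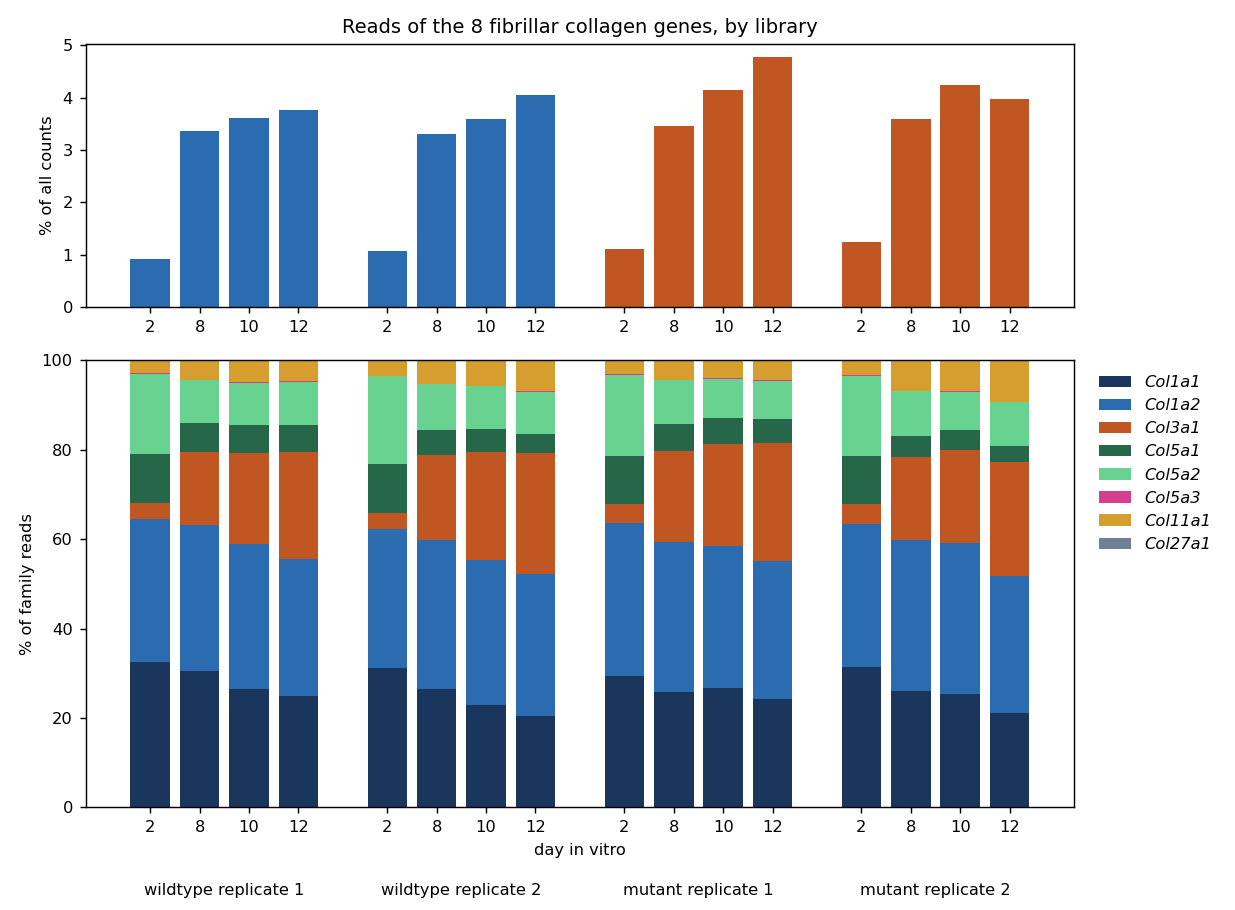
Top: reads of the 8 genes as a percent of all counts (y axis) in each library, by day (x axis), with wildtype in blue and mutant in orange. Bottom: the percent of those reads that came from each gene (stacked bars, 1 bar a library). The top bars go from between 0.919 and 1.25 percent at day 2 to between 3.77 and 4.79 percent, and the Col3a1 layer widens from between 3.52 and 4.39 percent at day 2 to between 23.9 and 27.2 percent at day 12.

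Ratios within a library do not depend on how libraries were scaled. The Col3a1 to Col1a1 ratio of read counts was 0.111 to 0.149 at day 2 and 0.956, 1.32, 1.09 and 1.21 at day 12 (wildtype replicates 1 and 2, then mutant replicates 1 and 2). The Col1a1 to Col1a2 ratio went the other way in all 4 lines, from 1.02, 1.00, 0.864 and 0.980 at day 2 to 0.814, 0.649, 0.788 and 0.686 at day 12, although the type I molecule normally holds more alpha 1 than alpha 2 chains. At day 2 both mutant lines lay above both wildtype lines in the first ratio and below them in the second, while at day 12 the genotypes overlapped in both. These differences in ratio were not tested.

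The Col11a1 to Col5a1 ratio, which sets type XI against type V, started close together in the 4 lines at day 2 (0.251, 0.297, 0.286 and 0.289, in the same order). At day 12 it was 0.740 and 0.794 in the replicate 1 lines, and 1.57 and 2.54 in the replicate 2 lines. The Col5a3 to Col5a2 ratio at day 12 ran in the reverse order, with 0.0192 and 0.0139 in the replicate 1 lines and 0.00967 and 0.00500 in the replicate 2 lines. The minor chains thus differed by the line's replicate number in the same direction in both genotypes, and the labels do not say what the letters I and L stand for. This difference between replicate numbers was not tested.

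**Figure D4:**
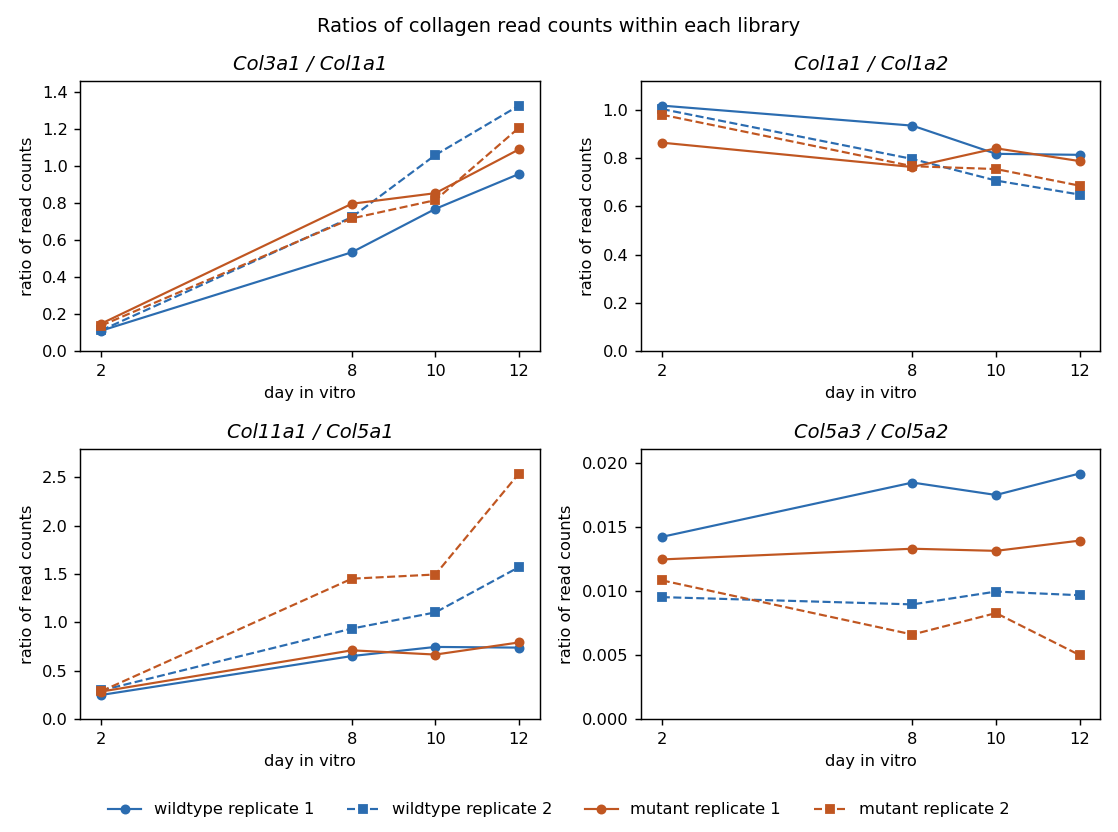
Ratio of read counts of the named gene pair (y axis, from 0) by day in vitro (x axis) in each of the 4 lines, with wildtype in blue, mutant in orange, replicate 1 solid and replicate 2 dashed; each point is 1 library. Col3a1 over Col1a1 climbs in all lines, and Col11a1 over Col5a1 fans out from 0.251 to 0.297 at day 2 to 0.740 to 2.54 at day 12.

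To compare genes with each other, CPM was divided by the length of the longest coding transcript in GENCODE M21 (from 5348 bases for Col1a2 to 8406 for Col5a1). In wildtype cells at day 2 the order of levels was Col1a2 (605 CPM per kilobase), Col1a1 (551), Col5a2 (289.7), Col5a1 (135), Col3a1 (65.8), Col11a1 (40.8), Col5a3 (3.64) and Col27a1 (1.17), each a mean of 2 lines. In quiescence it was Col1a2 (2091), Col1a1 (1474), Col3a1 (1389), Col5a2 (505), Col11a1 (238), Col5a1 (233), Col5a3 (7.58) and Col27a1 (2.75). Col3a1 thus moved past both main type V chains. Some neighbours in these orders overlapped between lines. At day 2 Col1a1 was at 524 and 578 CPM per kilobase in the 2 lines and Col1a2 at 571 and 639. In quiescence Col1a1 (1569 and 1379) overlapped with Col3a1 (1261 and 1517), and Col11a1 (201 and 274) with Col5a1 (257 and 208). The order of means was the same in mutant cells in each state.

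Within quiescence, between days 8 and 12, Col3a1 was the 1 member called, and it rose in both genotypes. Its log2 change was 0.77 (SE 0.15, edgeR adjusted p = 0.0240) in wildtype and 0.75 (SE 0.15, adjusted p = 0.0242) in mutant cells, higher in 2 of 2 lines of each. Over all genes, 0.175% and 0.214% of 15439 were called higher. These fits counted repeat harvests of a line as independent, and the Col3a1 calls depended on single lines. With either wildtype line left out, so that 1 remained, the wildtype call was lost (edgeR adjusted p = 0.463 without the first and 1.00 without the second), and the mutant call was lost without any 1 of the 4 lines (edgeR adjusted p = 0.0716 to 0.335). The fold itself moved little, with log2 values of 0.72 to 0.81 in wildtype and 0.64 to 0.86 in mutant cells over those fits.

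Col27a1 came next between days 8 and 12, with log2 changes of 0.78 (SE 0.24, edgeR adjusted p = 0.280) in wildtype and 1.02 (SE 0.24, adjusted p = 0.0780) in mutant cells. By line it was 1.59-fold and 1.85-fold higher at day 12 than at day 8 in wildtype and 1.69-fold and 2.44-fold in mutant lines. Without mutant replicate 1 or 2, which enter only the shared spread, the wildtype change passed (edgeR adjusted p = 0.0170 and 0.0242), and without mutant replicate 1 the mutant change did too (log2 1.28, adjusted p = 0.0230). With the line as a replicate block in edgeR the mutant change passed (log2 0.99, adjusted p = 0.0317). It did not in limma-voom, where the line was a random replicate block with a correlation of 0.091 within a line (log2 1.02, adjusted p = 0.0883). In the edgeR fit with the block, Col3a1 passed in both genotypes (adjusted p = 0.00340 in wildtype and 0.00325 in mutant cells). Type I and type V chains had log2 changes between -0.096 (Col1a1, wildtype) and 0.26 (Col5a3, wildtype) over the same days, and none of them passed. Col11a1 was 1.203-fold to 1.64-fold higher by line and did not pass either (edgeR adjusted p = 0.899 in wildtype and 0.784 in mutant cells).

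The comparison of genotypes asked whether fibrillar collagens depend on Zac1. No member was called between mutant and wildtype cells in either state, and Plagl1 was the 1 gene of 15740 that was (0.00635% of tested genes in each state). Plagl1 was 4.97-fold lower in mutant cells in proliferation and 3.68-fold lower at quiescence. It rose between states in both genotypes, 4.44-fold in wildtype and 6.00-fold in mutant cells. Quiescent mutant libraries held 40.5 to 60.3 CPM of it, so the mutant lines kept part of the transcript. In proliferation 8 of 8 members had a positive log2 fold change in mutant cells (median 0.19, beside 0.0014 over all genes), where 50.4% of tested genes did. At quiescence 7 of 8 did (median 0.18, beside 0.013), where 54.8% of tested genes did. DESeq2 and limma-voom also called 0 of 8 members in both states. At an unadjusted p under 0.05 edgeR's test found 2 members in proliferation, Col3a1 and Col1a2 (451 of all genes), and 0 at quiescence (76 of all genes).

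In proliferating cells Col3a1 was at 345 and 387 CPM in the wildtype lines and 497 and 550.1 in the mutant lines (levels from the scaling of the summed fit). Both mutant lines lay above both wildtype lines, with a log2 difference of 0.52 (SE 0.13, edgeR adjusted p = 1.00). Col1a2 was at 3056 and 3415 in wildtype and 3859.7 and 4059 in mutant lines (log2 0.29, SE 0.11, adjusted p = 1.00). The lines also did not overlap for Col5a3, and they did for the other 5 members. That made 3 of 8 members with both mutant lines on top, where 12.4% of tested genes had that order. The remaining log2 differences in proliferation lay between 0.16 (Col1a1, SE 0.12) and 0.24 (Col11a1, SE 0.30).

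At quiescence both mutant lines lay above both wildtype lines for 4 of 8 members, Col1a1, Col1a2, Col3a1 and Col5a2, where 12.8% of tested genes had that order. Col1a2 was at 10901 and 11463 CPM in wildtype and 12591 and 13137 in mutant lines, and Col1a1 at 9307 and 8175 against 10076 and 9748. For Col3a1 the margin was small, with wildtype replicate 2 at 8440.2 and mutant replicate 2 at 8454 CPM. Col5a3 was the member with a negative value (log2 -0.35, SE 0.36), and its sign rested on single lines, since it was 0.15 without wildtype replicate 1 and 0.041 without mutant replicate 2. Col11a1 (log2 0.33, SE 0.30) and Col27a1 (0.19, SE 0.18) changed sign without mutant replicate 2, to -0.17 and -0.070. Col5a1 was at 0.030 (SE 0.16). None of these differences passed (edgeR adjusted p = 1.00 for each member).

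**Figure D5:**
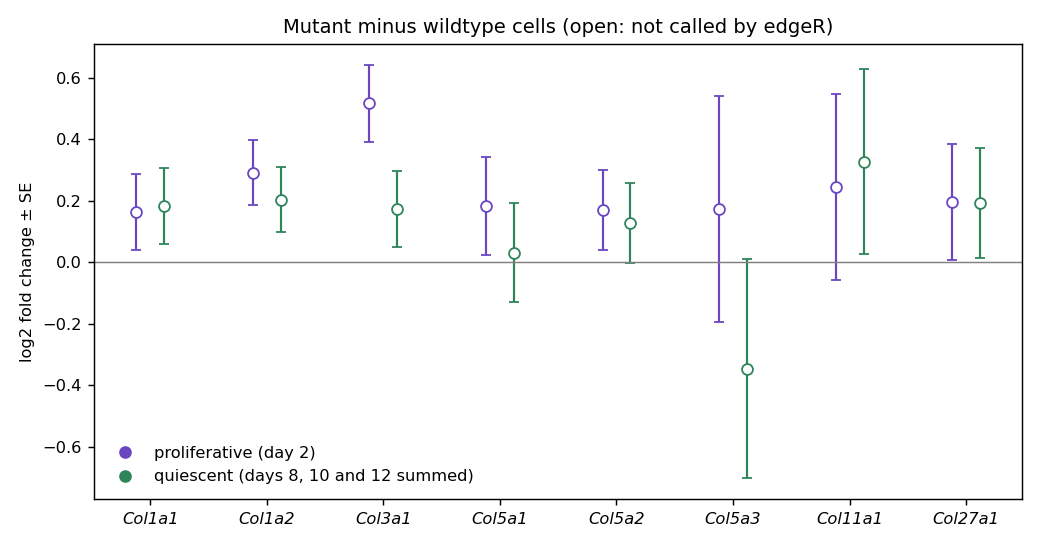
Log2 fold change of mutant over wildtype cells (y axis; points with SE bars from the edgeR test) for each gene (x axis), in proliferating cells (purple) and in quiescent cells (green), 2 lines a group; open points were not called. Col3a1 in proliferation stands highest at 0.52, and Col5a3 at quiescence is the 1 value below 0 (-0.35).

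The change of the genotype difference between states was tested as an interaction, and 0 of 8 members passed in edgeR, DESeq2 or limma-voom, with 0 members at an unadjusted p under 0.05 in edgeR (0 of 15740 genes were called by edgeR and by limma-voom and 1 by DESeq2, and 265 had that unadjusted p in edgeR). Col3a1, whose mutant excess was 0.52 in proliferation and 0.17 at quiescence, had an interaction of -0.34 (SE 0.18, edgeR adjusted p = 1.00). The others lay between -0.52 (Col5a3, SE 0.51) and 0.083 (Col11a1, SE 0.43). Within single days, 0 of 8 members were called between genotypes on day 2, 8, 10 or 12 (0.00648% of all tested genes, Plagl1 alone, on each of these days in edgeR) by edgeR, DESeq2 or limma-voom. The numbers of members at an unadjusted p under 0.05 were 2, 0, 2 and 0 on those days in edgeR, with 290, 276, 1507 and 227 of 15439 genes at that level. With 2 lines a group, the smallest two-sided p from permuting lines exactly would be 0.333.

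The fibrillar collagen genes outside the member list are Col24a1, Col2a1 and Col11a2. Col24a1, a fibrillar collagen known from bone and cornea, rose in both genotypes, from 2.23 and 2.182 CPM at day 2 to 28.6 and 18.7 at day 12 in the wildtype lines and from 4.13 and 2.93 to 23.7 and 17.7 in the mutant lines. Its log2 change was 3.18 (SE 0.25) in wildtype and 2.12 (SE 0.24) in mutant cells, and the difference of these, -1.06 (SE 0.33), did not pass (edgeR adjusted p = 1.00). Col2a1, the main collagen of cartilage, stood at 163, 274, 148 and 354 CPM at day 2 and at 46.8, 94.3, 30.3 and 271 at day 12, with no call in either genotype (adjusted p = 0.218 and 0.379). Col11a2, the partner chain of Col11a1 in cartilage, was at most 8.88 CPM in every library except mutant replicate 2 on days 10 and 12 (45.3 and 36.9 CPM). Its change was not called (adjusted p = 0.159 in wildtype and 0.0508 in mutant cells).

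The genes that fold, process and anchor these chains changed unevenly between states, and their counts stand against 23.9% of all tested genes called higher and 23.7% lower in wildtype cells. The same shares in mutant cells were 21.1% and 21%. Of 21 tested genes for folding and hydroxylation in the endoplasmic reticulum, 10 rose and 0 fell in wildtype cells and 11 rose and 0 fell in mutant cells (median log2 0.28 and 0.31). Named by smallest p in wildtype, Fkbp14, a prolyl isomerase, rose 2.34-fold (log2 1.23, SE 0.14), Plod2, a lysyl hydroxylase, 1.91-fold (log2 0.93, SE 0.11) and Leprel2, a prolyl 3-hydroxylase, 2.69-fold (log2 1.43, SE 0.20). These changes were smaller than those of Col3a1 and Col11a1. Of 7 tested genes for propeptide removal, 4 rose and 2 fell in wildtype and 4 and 2 in mutant cells (median 1.03 and 0.62). Tll1, a procollagen C-proteinase, fell (log2 -2.39, SE 0.20), while Pcolce, which enhances that cleavage, rose (log2 1.09, SE 0.12), as did Adamts3, a procollagen N-proteinase (log2 3.27, SE 0.52).

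Of 5 lysyl oxidase genes, which crosslink collagen, 1 rose and 2 fell in each genotype (median -0.10 in wildtype and -0.27 in mutant cells), a share of rises near that of all genes (23.9% in wildtype and 21.1% in mutant cells, with 23.7% and 21% called lower). Lox rose (log2 0.98, SE 0.14), and Loxl3 (log2 -1.11, SE 0.12) and Loxl4 (log2 -0.96, SE 0.21) fell. Fibril surface and assembly partners had the largest median of these lists, with 16 of 16 genes called higher in wildtype and 15 of 16 in mutant cells (median 4.60 and 4.18). Among them Thbs2, a matricellular thrombospondin, rose 6.92-fold in wildtype, and the small leucine-rich proteoglycans Fmod and Aspn, which bind collagen fibrils, rose 35.8-fold and 29.8-fold. Of 8 collagen receptors 5 rose and 2 fell in wildtype and 5 and 1 in mutant cells (median 1.29 and 1.11). The integrin chains Itga10 (log2 2.73, SE 0.19) and Itga1 (log2 2.14, SE 0.19) and the endocytic receptor Mrc2 (log2 1.69, SE 0.16) rose. Of 6 tested genes for collagen breakdown 5 rose and 0 fell in each genotype (median 2.02 and 1.85), among them the metalloproteinases Mmp2 (log2 2.31, SE 0.15) and Mmp14 (log2 0.98, SE 0.14) and the lysosomal protease Ctsk (log2 1.73, SE 0.19). Between genotypes 0 genes of these lists were called in either state by edgeR. All values in these lists are edgeR log2 fold changes in wildtype cells unless stated, and the named genes passed in both genotypes.

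Genes with the most similar pattern to each member were found by Pearson's r of log2(CPM + 1) over the 16 libraries, which come from 4 lines and differ most between day 2 and the later days, so r holds that step. For Col3a1 the closest genes were Abi3bp (0.996) and Robo2 (0.995), and for Col1a2 they were Sardh (0.995), Col3a1 (0.993) and Cnksr3 (0.993). Col3a1 was the 1 member named among the closest genes of another. For Col1a1 they were Tmem119 (0.986), Ptprs (0.984) and Itgb5 (0.984), for Col5a1 Arap1 (0.975), Adamts2 (0.962) and Ggt7 (0.962) and for Col5a2 Myo1e (0.986), Slc6a9 (0.985) and Plxna3 (0.984). Adamts2 encodes the enzyme that removes the amino-terminal propeptide of fibrillar collagens. For Col5a3 the closest genes were Gpx3 (0.967), Kcp (0.945) and Scn3b (0.945), for Col11a1 Aplp2 (0.994), Erg (0.992) and Ndrg1 (0.989) and for Col27a1 Hist1h1c (0.960), Hr (0.949) and Jmjd8 (0.943). Over the 12 quiescent libraries alone, r for the same pairs was 0.928 to 0.973 for Col5a3 and 0.902 to 0.956 for Col11a1, and 0.630 to 0.889 for Col1a1.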

How the data were processed

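RNA was measured in 16 libraries of 4 fibroblast lines. The deposited table holds whole-number read counts per gene, not normalized. Per the labels' protocols, a stranded kit was used. The submitters' processing notes name HTSeq 0.6.1p1, Bowtie2 2.2.9, TopHat2 2.1.1, bcl2fastq 2.18 and build mm9, while the annotation and the strand setting are not given in the sources used here. Counts on opposite strands may therefore be mixed. No column belonged to other samples and no row lacked a gene name.

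From these counts CPM was derived, using TMM scaling. Days 8, 10 and 12 of a line were summed, giving 8 summed libraries (15740 genes after filterByExpr, 4 residual degrees of freedom). The comparisons of days, and of genotypes within a day, used the 16 libraries (15439 genes, 8 residual degrees of freedom). The test was the robust quasi-likelihood test of edgeR 4.0.16 in R 4.3.3, adjusted by Benjamini-Hochberg over all tested genes and called under 0.05, after a check on simulated data. Dividing a log2 fold change's size by the root of its F statistic gave the SE. The main fits had no term for the line. The same line was harvested on every day, so lines pair the states and days by design (correlation of line differences between states 0.208 in wildtype and 0.196 in mutant cells), and the blocked value is given where it changes a call. Replicate libraries were no copies of each other, with a chi-square of 34.1 to 73.1 for each degree of freedom. Alternatives were other scalings, DESeq2 1.42.0, limma-voom (3.58.1), other filters, fits without 1 line or 1 day, fits of only the libraries compared, and replicate blocks. Named genes were Plagl1, the members, the 3 genes most like each member (predicted genes left out, and 1 gene not reported here) and the 3 with the smallest p in wildtype in each context list. The single marker genes named and the genes of the closing section were singled out after their values were seen. The members, lists and rules were chosen with earlier results of these data known.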

Additional observations from a re-analysis of the deposited data

How the results depend on the processing

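Of 840 values of single members under an alternative setting, 789 kept their direction and their side of the threshold, 10 lost a call, 13 gained one and 28 changed sign, none of the sign changes in a called value. The counts of members called were 6 to 8 between states in wildtype and 6 or 7 in mutant cells, and 0 between genotypes and for the interaction, under every alternative run. The count for day 12 against day 8 in wildtype (1 in the reported fit) was 0 with the libraries of the comparison alone and ranged from 0 to 2 over the fits that left out one line each. In mutant cells (also 1) it was 0 with the libraries of the comparison alone, 2 with DESeq2, 2 with the line as a replicate block, and 0 to 1 with one line left out. The fits of the comparison alone and those without a line hold fewer samples. The cause of the calls added by DESeq2 and the block was not tested. The Col5a3 change between states in wildtype cells, not called in the reported fit, passed in 8 of 16 alternatives. Over all genes, the block moved the number called between days 8 and 12 from 126 to 304 in wildtype and from 168 to 319 in mutant cells, and DESeq2 called 301 and 359. With the libraries of the comparison alone these were 23 and 0, and without single lines 0 to 192 and 29 to 74. Between genotypes DESeq2 called 3 genes in proliferation, 2 at day 2 and 14 at day 10, where edgeR called 1 each. For genotypes, same-numbered lines share a number and a letter whose meaning the labels do not give (correlation of line differences 0.289 in proliferation and 0.154 at quiescence), and the replicate block on that number called 0 members in either state. The block changed no other call than those given with the results. Library totals alone moved the median of all genes between states in wildtype cells from 0.051 to 0.15 on the log2 scale, and all 8 members were then called.

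Sign changes were in uncalled values. The genotype difference of Col5a1 at quiescence was -0.0098 with library totals and -0.039 without day 10, and that of Col27a1 was -0.036 without day 10. The interaction of Col1a1 was -0.016 with upper quartile scaling, -0.046 with library totals, -0.084 without day 10 and -0.0011 without day 12, and that of Col27a1 was 0.12 without day 8 and 0.085 without day 12. With one line left out, the genotype difference at quiescence ranged over -0.18 to 0.22 for Col5a1, -0.87 to 0.15 for Col5a3, -0.17 to 0.69 for Col11a1 and -0.070 to 0.41 for Col27a1. The interaction ranged over -0.13 to 0.19 for Col1a1, -0.46 to 0.14 for Col5a1, -0.17 to 0.066 for Col5a2, -0.30 to 0.34 for Col11a1 and -0.14 to 0.11 for Col27a1. Day 12 against day 8 ranged over -0.036 to 0.088 for Col5a1 in wildtype cells, and in mutant cells over -0.11 to 0.41 for Col1a1, -0.19 to 0.35 for Col5a1 and -0.22 to 0.39 for Col5a3. The number of lines, 2 a genotype, limits the precision of these values.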

Other observations

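Among the cartilage genes measured beside Col11a1, the network-forming collagen Col10a1 was higher on every quiescent day than on day 2 in all 4 lines. Its level was 7.41, 10.1, 8.08 and 9.20 CPM at day 2 (wildtype replicates 1 and 2, then mutant replicates 1 and 2) and 151, 279, 248 and 221 at day 10. The fibril-associated collagen Col9a1 was at most 11.1 CPM outside mutant replicate 2 and reached 25.2 and 34.0 there on days 10 and 12. Comp, a fibril-binding thrombospondin of cartilage and tendon, stood at 40.1, 123, 105 and 207 CPM at day 12 in the same order of lines, against at most 2.53 at day 2. Other genes of the cartilage list went the other way. Col2a1 was lower at day 12 (46.8, 94.3, 30.3 and 271 CPM) than at day 2 (163, 274, 148 and 354) in all 4 lines. Acan was lower at day 12 than at day 2 in every line but mutant replicate 2. These genes were chosen after their values were seen, and no comparison of them was tested here beyond the lists above.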
